A study of Mus musculus with 6 samples.

Results

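The spleens of mice given the higher of 2 cadmium doses were set against those of mice given the lower dose. The 10 µmol/kg group had 2 arrays and the 5 µmol/kg group had 2 arrays, so the comparison used 4 of the 6 arrays measured, and 2 saline arrays made up the rest. All mice were of the outbred ICR stock and 28 days old. Each had received 1 subcutaneous injection, of CdCl2 at 10 or 5 µmol/kg dissolved in 200 µL saline, or of saline with no CdCl2, and spleens were taken 24 h later. Groups had 7 to 8 animals, and whether 1 array stands for 1 animal or a pool is not stated in the labels. The p-values therefore cover the spread from array to array alone, and that spread may be technical. A probe entered the comparison where its detection p-value, from a test against negative-control probes, was under 0.05 on at least 2 of the 6 arrays. That held for 18960 of 45281 probes, which gave 13559 genes and unnamed probes.

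Cadmium is a toxic metal that cells bind with the small cysteine-rich metallothioneins. The spleen filters blood, its red pulp macrophages break down old red cells and recycle their iron, and in mice it also makes red cells. Its white pulp holds B and T cells. Interferons switch on a shared set of antiviral genes, among them Isg15, a ubiquitin-like protein that is attached to other proteins.

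The label spleen was matched by B cell, T cell, macrophage and red cell markers. Cd79b, Ms4a1, Cd3e, Spic, Vcam1, Slc4a1 and Hba-a1 were detected on all 6 arrays. The spleen-forming transcription factor Tlx1 was detected on 1 array and did not enter the tests. Between 16265 and 18561 probes were detected per array. The arrays at 10 µmol/kg stood apart from each other in genes of pancreatic acinar cells, which make digestive enzymes. All 34 acinar genes measured lay lower at 10 than at 5 µmol/kg, with a median log2 difference of −3.49, and the split ran between arrays. Their mean log2 signal was 4.87 and 10.97 on arrays 1 and 2 at 10 µmol/kg, 11.17 and 10.44 at 5 µmol/kg, and 4.70 and 11.68 with saline. Of the 34, 13 and 34 were detected on the arrays at 10 µmol/kg, 32 and 34 at 5 µmol/kg, and 8 and 34 with saline. The amylase Amy2a5 had 7.25 and 14.33 at 10 µmol/kg and 14.24 and 14.34 at 5 µmol/kg. Without array 1 at 10 µmol/kg the acinar median was 0.22, with 29 of 34 genes above 0. Over all genes, which are not independent replicates, Pearson's r was 0.929 between the arrays at 10 µmol/kg and 0.983 between those at 5 µmol/kg. Array 2 at 10 µmol/kg correlated with array 2 at 5 µmol/kg at r = 0.988. The list medians of each array at 10 µmol/kg are therefore plotted side by side at the end, and the part of the acinar signal in the results was not tested.

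The doses were compared to ask whether the spleen responded differently to them. The named genes with the smallest p on the lower side at 10 µmol/kg included the interferon-induced pair Isg15 and Usp18 and the red cell precursor genes Tspo2 and Cpox. On the higher side the smallest p belonged to Zfp871, Mapt and Pced1a. None of the 13559 genes and probes passed limma's moderated test after Benjamini-Hochberg adjustment, or 0.00%, and the smallest adjusted p was 0.981. An unadjusted p under 0.05 was reached by 130 genes (0.959%), of which 66 were higher at 10 µmol/kg (0.487%) and 64 lower (0.472%). The median log2 difference over all genes was 0.01. The 2 arrays of a dose lay wholly above those of the other dose for 2059 genes that were higher at 10 µmol/kg (15.2%) and for 2132 that were lower (15.7%). With 2 arrays in each group an exact two-sided permutation test of a single gene cannot go below p = 0.333. The median gene had a standard error of 0.29 and an unadjusted 95% interval reaching 0.69 to each side of its log2 difference. Larger differences than that did not pass the adjusted test either, such as −1.60 for Usp18 (limma adjusted p = 0.981). Differences between the doses could therefore go unseen with these arrays.

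**Figure D1:**
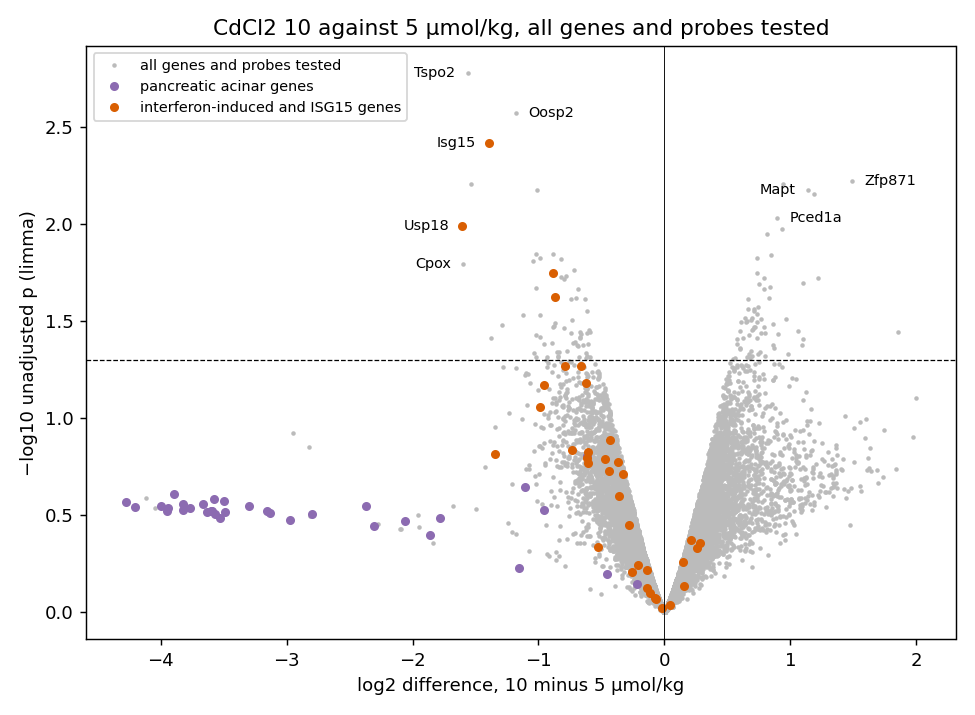
Log2 difference between 10 and 5 µmol/kg (horizontal axis) against −log10 of the unadjusted limma p (vertical axis) for 13559 genes and probes (grey), with pancreatic acinar genes in purple, interferon-induced and ISG15 genes in orange and a dashed line at the unadjusted 0.05 level. The acinar genes lie far to the left below the line, the labelled genes Tspo2, Oosp2 and Isg15 lie highest on the left, and no point passed the adjusted threshold.

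Among the 15 named genes lower at 10 µmol/kg with the smallest p, log2 differences ran between −1.60 and −0.68. Tspo2, a cholesterol-binding membrane protein of red cell precursors, had log2 signals of 8.46 and 8.71 at 10 µmol/kg, 10.29 and 9.99 at 5 µmol/kg, and 8.58 and 9.27 with saline. Both arrays at 5 µmol/kg were higher than the other 4 arrays. Its log2 difference between the doses was −1.56 ± 0.31 (SE; unadjusted p = 0.00166, adjusted p = 0.981). Oosp2, known as a protein secreted by oocytes, had 4.97 and 5.19 at 10 µmol/kg, 6.36 and 6.16 at 5 µmol/kg, and 4.60 and 4.99 with saline. Its other probe differed in the same direction, by −0.53. Nsdhl, an enzyme of cholesterol synthesis, had 4.58 and 4.94 at 10 µmol/kg, 5.91 and 5.62 at 5 µmol/kg, and 4.52 and 4.76 with saline, but its other probe differed by 0.23. It was detected on 1 array at 10 µmol/kg, as was Pla2g4c, a phospholipase (4.75 and 4.62 at 10 µmol/kg, 5.97 and 5.44 at 5 µmol/kg). All 15 genes had both arrays at 10 µmol/kg below both at 5 µmol/kg, which the choice by smallest p makes likely.

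Also among the 15, Esco2, which acetylates cohesin so that sister chromatids hold together, had 6.86 and 6.87 at 10 µmol/kg, 7.82 and 7.54 at 5 µmol/kg, and 6.41 and 6.80 with saline. Rad18, a ubiquitin ligase of damage-tolerant replication, had 5.02 and 4.95 at 10 µmol/kg against 6.16 and 5.77 at 5 µmol/kg. In both genes the arrays at 10 µmol/kg nearly coincided. The chromatin protein Atad2 and the kinetochore protein Dsn1 were detected on neither array at 10 µmol/kg and on both at 5 µmol/kg, and were at least 1.55-fold and at least 1.40-fold lower at 10 µmol/kg. For these bounds a signal under the lowest detected one on its array was raised to it. The other members were Nif3l1 (5.11 and 5.85 at 10 µmol/kg, 6.57 and 6.48 at 5 µmol/kg), the mitochondrial ribosomal protein Mrps2 (4.95 and 5.06 against 5.70 and 5.75) and the proton pump subunit Atp6v1g1 (6.85 and 7.30 against 7.93 and 7.79), with Isg15, Usp18, Ifi35 and Cpox described further on.

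The 15 named genes higher at 10 µmol/kg with the smallest p had differences between 0.66 and 1.49 and mean log2 signals between 5.12 and 7.05 at 10 µmol/kg. Of these, 8 were detected on neither array at 5 µmol/kg. Over all genes tested, 218 (1.61%) were detected by both 10 µmol/kg arrays and by neither 5 µmol/kg array, and 148 (1.09%) the other way round. Zfp871, a zinc finger protein, had 6.65 and 5.59 at 10 µmol/kg, 4.53 and 4.74 at 5 µmol/kg, and 5.66 and 5.39 with saline. Only the arrays at 5 µmol/kg were below its detection limit, and it was at least 2.57-fold higher at 10 µmol/kg. Mapt, the microtubule-binding protein tau, had 6.97 and 6.47 at 10 µmol/kg, 5.43 and 5.73 at 5 µmol/kg, and 6.41 and 6.86 with saline. Its values at 10 µmol/kg overlapped those with saline, and its other probe differed by 0.21. Lynx1, which binds nicotinic acetylcholine receptors, had 6.99 and 7.11 at 10 µmol/kg, 5.32 and 6.34 at 5 µmol/kg, and 7.96 and 7.32 with saline, and its other probe differed by 0.11. Mgmt, the enzyme that removes alkyl groups from guanine, had 6.99 and 7.05 at 10 µmol/kg, 5.95 and 6.44 at 5 µmol/kg, and 5.92 and 6.38 with saline. Here the arrays at 10 µmol/kg were above all 4 others.

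The transcriptional repressor Rbak had 7.23 and 6.81 at 10 µmol/kg against 6.13 and 6.21 at 5 µmol/kg, and Pced1a had 6.31 and 6.13 against 5.38 and 5.27. Elmo3, of the family that helps engulf dying cells, was at least 1.61-fold higher at 10 µmol/kg. The bounds were at least 1.51-fold for Prpsap2, which binds phosphoribosyl pyrophosphate synthetase, and between at least 1.28-fold and at least 1.45-fold for Tbc1d22b, Glis3, Prr3, Rps6kl1 and Myo18b. Tmem191c had 6.09 and 5.46 at 10 µmol/kg and 4.99 and 4.88 at 5 µmol/kg. Its other probe differed the other way, by −0.11, as did 1 of the 2 other probes of Pced1a. The last member, the mitochondrial protein Ttc19, had 5.75 and 6.0 against 5.20 and 5.22. Over all genes with exactly 1 other probe, 65.9% had the same direction in both probes.

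Isg15 and the protease that removes it stood lower at 10 than at 5 µmol/kg, while the enzymes that attach it did not lie to that side together. Isg15 had 7.96 and 7.78 at 10 µmol/kg, 9.02 and 9.51 at 5 µmol/kg, and 7.33 and 8.02 with saline. The 2 arrays at 5 µmol/kg were the highest of the 6. Its log2 difference was −1.40 ± 0.32 (SE; unadjusted p = 0.00379, adjusted p = 0.981). Usp18, the protease that removes Isg15 from proteins, had 6.90 and 6.74 at 10 µmol/kg, 7.94 and 8.90 at 5 µmol/kg, and 6.88 and 7.95 with saline. Saline array 2 reached the level of array 1 at 5 µmol/kg. The difference between the doses was −1.60 ± 0.45. Its other probe, tested on its own, had 4.90 and 4.97 at 10 µmol/kg, 6.03 and 6.69 at 5 µmol/kg, and 4.82 and 4.86 with saline, a difference of −1.42 ± 0.29. On that probe both arrays at 5 µmol/kg were above all 4 others. Uba7, the enzyme that activates Isg15, had 10.62 and 9.45 at 10 µmol/kg and 9.70 and 10.06 at 5 µmol/kg, and the groups overlapped. Ube2l6, which carries Isg15 to its targets, had 9.92 and 9.63 at 10 µmol/kg and 9.87 and 10.08 at 5 µmol/kg. Trim25, a ligase that can attach it, had 8.57 and 8.24 at 10 µmol/kg and 7.78 and 8.46 at 5 µmol/kg.

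Of 31 other interferon-induced genes, 27 lay lower at 10 µmol/kg (49.2% of all genes did), with a median log2 difference of −0.43. None passed the adjusted test, and 2 had an unadjusted p under 0.05 (0.959% of all genes). For 11 of 31 both arrays at 10 µmol/kg were below both at 5 µmol/kg (15.7% of all genes). The median was −0.40 for array 1 at 10 µmol/kg and −0.46 for array 2, each against the mean of the arrays at 5 µmol/kg. It was −0.63 without array 1 at 5 µmol/kg and −0.10 without array 2 at 5 µmol/kg, where 19 of 31 genes lay lower. Ifi35, an interferon-induced leucine zipper protein, had 5.72 and 5.74 at 10 µmol/kg, 6.88 and 6.35 at 5 µmol/kg, and 5.82 and 5.43 with saline (difference −0.88 ± 0.28). Oas1g, of the family of antiviral oligoadenylate synthetases, had 5.44 and 5.21 at 10 µmol/kg, 5.84 and 6.55 at 5 µmol/kg, and 5.43 and 5.38 with saline (−0.87 ± 0.30). For both genes the arrays at 5 µmol/kg were higher than the other 4. Of the 2 other probes of Oas1g, 1 differed in the opposite direction. The brightest member, the antiviral enzyme Rsad2, had 13.13 and 12.09 at 10 µmol/kg and 12.61 and 12.52 at 5 µmol/kg, with no order between the doses. Ifit3, an interferon-induced RNA-binding family member chosen after its values were seen, had 7.25 and 7.28 at 10 µmol/kg, 7.15 and 10.07 at 5 µmol/kg, and 7.05 and 7.37 with saline. Its signal was high on array 2 at 5 µmol/kg and nearly level on the other 5. In whole spleen, fewer cells of a type and less RNA per cell cannot be told apart, here and in all lists that follow.

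**Figure D2:**
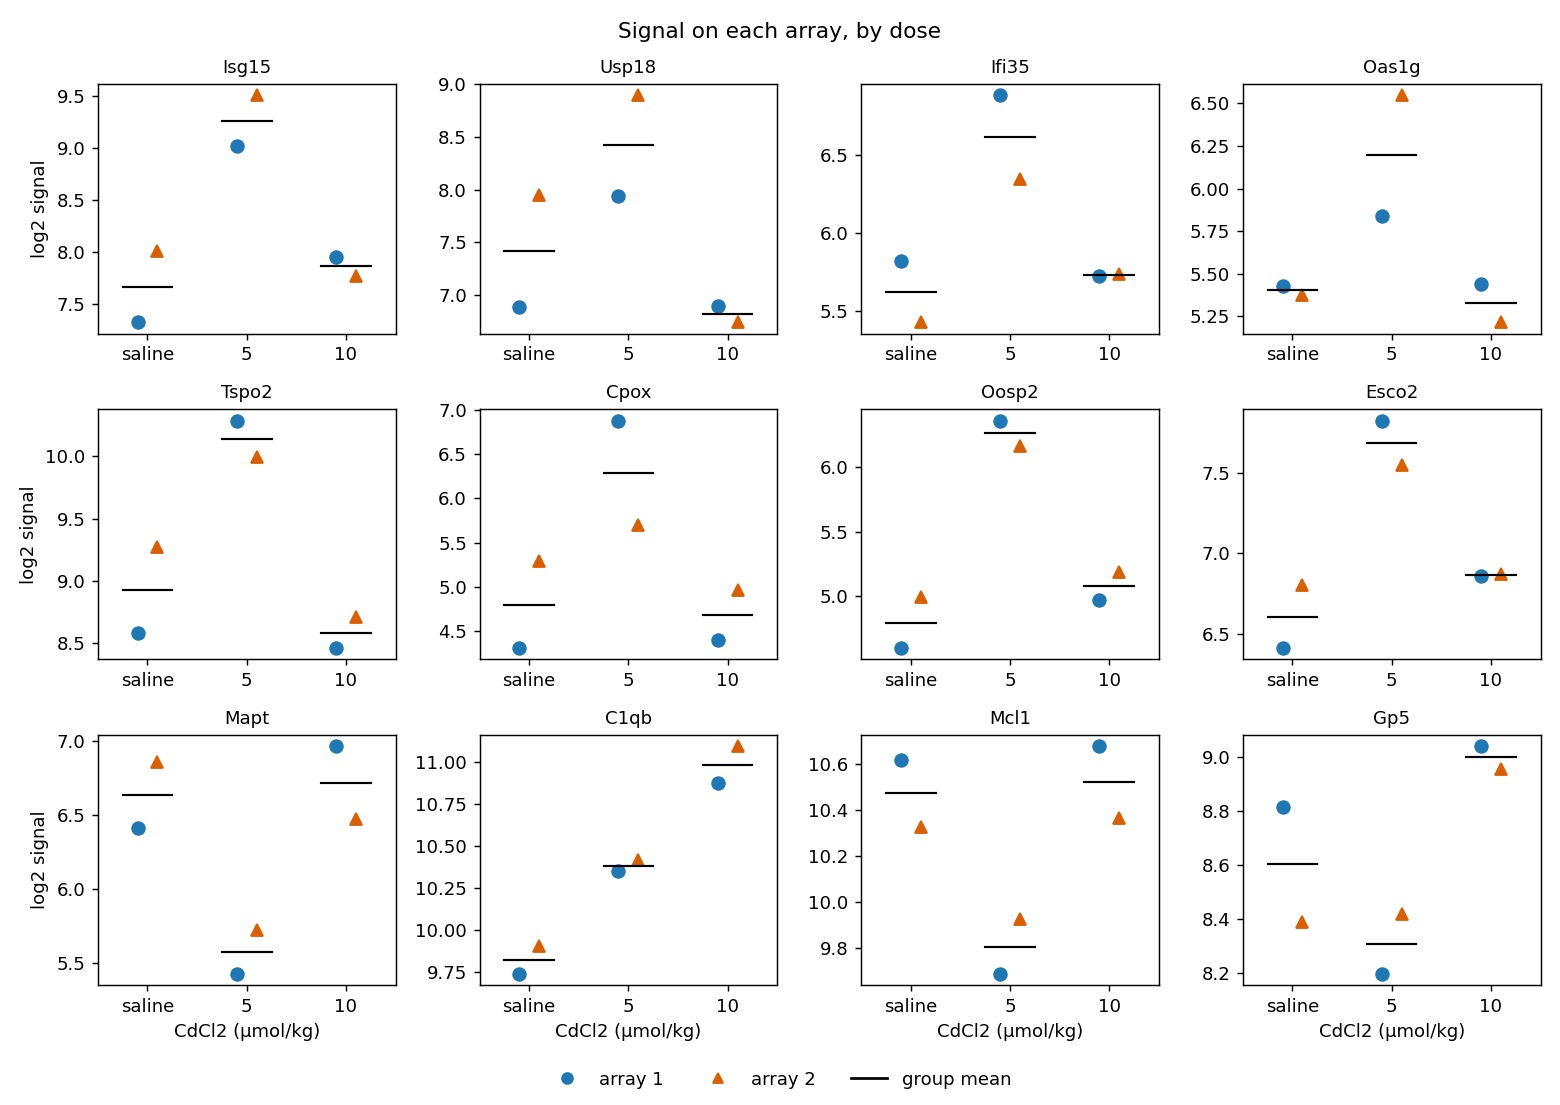
Log2 signal (vertical axes, a separate scale for each gene) of 12 genes on each of the 6 arrays, by dose of CdCl2, with array 1 as circles, array 2 as triangles and a line at the group mean. Isg15, Usp18, Ifi35, Oas1g, Tspo2, Cpox, Oosp2 and Esco2 have their highest mean at 5 µmol/kg, Mapt, Mcl1 and Gp5 their lowest, and C1qb was 10.87 and 11.09 at 10 µmol/kg, above its other arrays.

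Interferon-induced genes are switched on through a promoter element bound by STAT and IRF proteins. Its core, GAAA repeated after a gap of 2 unspecified bases, was searched on both strands, from 250 bases before to 50 after each start, in RefSeq promoters of GRCm38.p6. It was found in 1131 of 32851 promoters (3.44%) and, counted by gene, in 354 of the 8756 tested genes with a promoter (4.04%). Of the 31 other interferon-induced genes, 23 had a promoter, and 14 of these had a match (60.9%). Of these 14 genes, 11 lay lower at 10 µmol/kg, as did all 9 with no match, Ifi35 among them. Of the ISG15 genes, 4 had a promoter and 1 of these, Isg15, had a match. The promoters of Isg15, Oas1g and Ifit3 are printed 5′ to 3′ on the strand of the gene, with matches in capitals. They show how these matches are arranged in genes whose mean signal was highest at 5 µmol/kg, for Ifit3 through array 2 alone.
Isg15 (chr4:156200769-156201068, minus strand): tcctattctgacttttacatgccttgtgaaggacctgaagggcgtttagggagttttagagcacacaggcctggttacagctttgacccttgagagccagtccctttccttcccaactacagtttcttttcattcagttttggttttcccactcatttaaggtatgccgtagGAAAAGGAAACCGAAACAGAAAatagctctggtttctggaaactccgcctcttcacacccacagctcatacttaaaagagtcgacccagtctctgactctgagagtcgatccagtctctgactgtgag
Oas1g (chr5:120887564-120887863, minus strand): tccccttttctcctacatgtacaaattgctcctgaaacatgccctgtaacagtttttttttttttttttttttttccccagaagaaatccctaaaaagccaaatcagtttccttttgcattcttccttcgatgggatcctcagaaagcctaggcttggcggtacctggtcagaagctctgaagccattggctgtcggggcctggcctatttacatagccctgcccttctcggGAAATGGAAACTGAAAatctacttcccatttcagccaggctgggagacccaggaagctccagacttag
Ifit3 (chr19:34583279-34583578, plus strand): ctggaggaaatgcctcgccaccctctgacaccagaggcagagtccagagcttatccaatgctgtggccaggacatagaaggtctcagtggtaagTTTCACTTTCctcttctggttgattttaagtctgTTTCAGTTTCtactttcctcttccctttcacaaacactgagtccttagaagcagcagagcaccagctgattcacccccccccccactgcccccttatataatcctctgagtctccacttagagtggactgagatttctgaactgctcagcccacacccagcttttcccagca
In Isg15 there were 3 matches that overlap each other, starting 78, 72 and 66 bases before the start. In Oas1g there were 2 overlapping matches, 18 and 12 bases before it. In Ifit3 there were 2 separate matches, 156 and 122 bases before it, both on the strand opposite to the printed one. A match describes these letters and does not show binding.

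Genes of red cell formation lay on both sides, although Tspo2 and Cpox were among the 15 lower genes named above. Haem is built in mitochondria and cytosol, and its late steps pass through the mitochondrial membranes. Cpox, the enzyme of a late step, had 4.41 and 4.97 at 10 µmol/kg, 6.88 and 5.70 at 5 µmol/kg, and 4.31 and 5.29 with saline. It was detected on 1 array at 10 µmol/kg, and its difference was −1.60 ± 0.50 (SE; unadjusted p = 0.0161, adjusted p = 0.981). Fech, which inserts the iron, had 8.79 and 9.49 at 10 µmol/kg, 9.70 and 9.83 at 5 µmol/kg, and 7.70 and 8.63 with saline. Alas2, the first enzyme of haem synthesis in red cells, had 14.02 and 13.06 at 10 µmol/kg and 13.43 and 13.50 at 5 µmol/kg, and its arrays at 10 µmol/kg lay on either side. Over the 10 haem synthesis genes the median was −0.04, with 5 higher and 5 lower at 10 µmol/kg. Against the mean at 5 µmol/kg it was 0.32 on array 1 and −0.43 on array 2. Over 21 erythroid membrane, globin and regulator genes the median was −0.03, with 0.28 on array 1 and −0.37 on array 2. The anion exchanger Slc4a1 had 14.33 and 14.28 at 10 µmol/kg and 14.28 and 14.39 at 5 µmol/kg. The ammonium channel Rhag had 8.76 and 9.14 against 9.90 and 9.0.

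When each probe was tested on its own, 1 of 18960 probes passed, and it belonged to Tmem14c, which mouse and fish studies place in the mitochondrial import of the haem precursor protoporphyrinogen. Tmem14c, a gene of chromosome 13, was chosen after its values were seen. This probe had 4.29 and 4.42 at 10 µmol/kg, 12.04 and 11.01 at 5 µmol/kg, and 10.26 and 11.39 with saline. It was detected on neither array at 10 µmol/kg, with detection p-values of 0.817 and 0.415, and was bright on the other 4. It was at least 111-fold lower at 10 µmol/kg, with a log2 difference of −7.17 ± 0.47 (SE; limma adjusted p = 0.0327 over all probes). Both other probes of Tmem14c were bright at 10 µmol/kg. The probe that stood for the gene had 10.17 and 9.96 at 10 µmol/kg, 11.78 and 10.93 at 5 µmol/kg, and 9.46 and 10.76 with saline, a difference of −1.29 ± 0.48 (adjusted p = 0.980 over all probes). The third had 10.08 and 10.05 at 10 µmol/kg, 11.07 and 10.77 at 5 µmol/kg, and 9.40 and 11.07 with saline (−0.86 ± 0.51). All 3 probes thus lay lower at 10 than at 5 µmol/kg, by very different amounts. The probe that passed had nearly the same level on both arrays at 10 µmol/kg. What sets the probes apart was not tested.

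**Figure D3:**
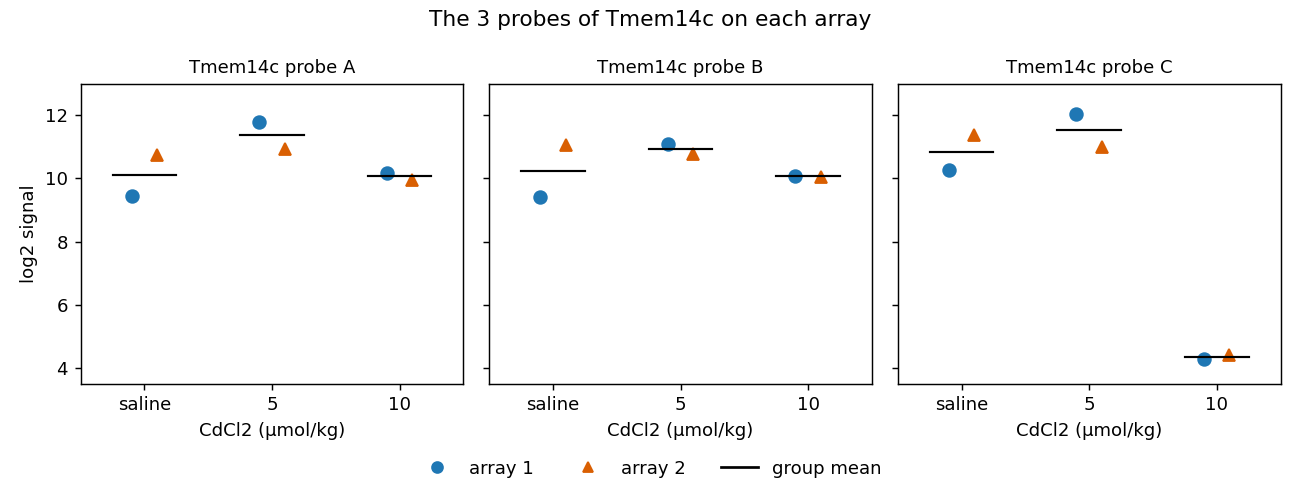
Log2 signal (vertical axis) of the 3 probes of Tmem14c on each array, by dose of CdCl2, with array 1 as circles, array 2 as triangles and a line at the group mean; probe A stood for the gene. Probe C was at 4.29 and 4.42 at 10 µmol/kg and above 10 on the other 4 arrays, while probes A and B stayed near 10 at 10 µmol/kg.

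Of 42 genes of DNA replication and mitosis, 40 lay lower at 10 µmol/kg (49.2% of all genes did), with a median log2 difference of −0.38. None passed the adjusted test, and for 14 of 42 the arrays at 10 µmol/kg were both below those at 5 µmol/kg (15.7% of all genes). The size rested on the arrays: the median against the mean at 5 µmol/kg was −0.08 for array 1 at 10 µmol/kg and −0.71 for array 2. It was −0.19 without array 1 at 5 µmol/kg and −0.62 without array 2. Cenpa, the histone that marks centromeres, was the brightest, with 11.74 and 11.80 at 10 µmol/kg, 12.28 and 12.09 at 5 µmol/kg, and 11.53 and 11.83 with saline. Aurkb, a kinase of chromosome attachment, had 7.82 and 8.06 at 10 µmol/kg, 8.88 and 8.67 at 5 µmol/kg, and 7.11 and 8.02 with saline (difference −0.84 ± 0.34). Ccne2, the cyclin that starts DNA copying, had 5.96 and 6.57 at 10 µmol/kg, 7.66 and 6.72 at 5 µmol/kg, and 5.45 and 5.85 with saline (−0.92 ± 0.39). In each of these genes both arrays at 5 µmol/kg were higher than the other 4 arrays. The list as a whole did not have that order. Its mean log2 signal over the 42 genes was 8.99 and 8.48 at 5 µmol/kg, and 7.73 and 8.75 with saline. Saline array 2 and array 1 at 10 µmol/kg both lay above array 2 at 5 µmol/kg.

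Subunits of the mitochondrial respiratory chain lay mostly lower at 10 µmol/kg by small amounts. Of 66 measured, 59 were lower (49.2% of all genes were), and the median was −0.26. For 30 of 66 the doses did not overlap on that side (15.7% of all genes). None passed the adjusted test. In complex I, which takes electrons from NADH, 32 of 34 subunits were lower (median −0.29). In the ATP synthase 12 of 14 were lower (−0.21), in complex III 6 of 7 (−0.21), in complex IV 6 of 7 (−0.12) and in complex II 2 of 3 (−0.41). The median over the 66 was −0.39 for array 1 at 10 µmol/kg and −0.12 for array 2. The complex I subunit Ndufc1 had 9.31 and 9.82 at 10 µmol/kg, 10.24 and 10.03 at 5 µmol/kg, and 9.20 and 9.52 with saline (−0.57 ± 0.28). The ATP synthase stalk subunit Atp5pb had 9.01 and 9.71 at 10 µmol/kg, 10.18 and 9.77 at 5 µmol/kg, and 8.58 and 8.55 with saline (−0.62 ± 0.31). The catalytic subunit Atp5b, the brightest, had 13.20 and 12.30 at 10 µmol/kg and 12.30 and 12.88 at 5 µmol/kg, and the groups overlapped.

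The proteasome, which degrades ubiquitin-tagged proteins, had 26 of 31 subunits lower at 10 µmol/kg (49.2% of all genes were), with a median of −0.20. The doses did not overlap for 17 of 31 on that side (15.7% of all genes), and none passed the adjusted test. All 11 constitutive core subunits were lower (median −0.28), as were 12 of 14 subunits of the regulatory cap (−0.16). The 3 interferon-induced core subunits had a median of −0.00, with 2 of them lower, and 1 of 3 activator subunits was lower. The core subunit Psmb1 had 6.07 and 6.65 at 10 µmol/kg, 7.15 and 6.94 at 5 µmol/kg, and 6.72 and 6.69 with saline (−0.69 ± 0.27, unadjusted p = 0.042, adjusted p = 0.981). Here the arrays at 10 µmol/kg were the lowest of the 6. Psmb4, the brightest core subunit, had 11.66 and 11.83 against 12.07 and 11.91 at 5 µmol/kg. The cap subunit Psmd12 had 8.02 and 8.71 at 10 µmol/kg, 8.89 and 8.82 at 5 µmol/kg, and 7.64 and 7.95 with saline.

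Genes of red pulp macrophages and monocytes lay mostly higher at 10 µmol/kg, with 19 of 26 above 0 (50.8% of all genes were) and a median of 0.31. The doses did not overlap for 12 of 26 on that side (15.2% of all genes), and none passed the adjusted test. The median was 0.13 for array 1 at 10 µmol/kg and 0.38 for array 2. C1qb, a chain of the complement protein C1q, had 10.87 and 11.09 at 10 µmol/kg, 10.35 and 10.41 at 5 µmol/kg, and 9.74 and 9.91 with saline. Its level was higher at each dose than at the one before, with no overlap, and the difference between the doses was 0.60 ± 0.23 (SE; unadjusted p = 0.0355, adjusted p = 0.981). Its partner chain C1qa had 9.66 and 9.23 at 10 µmol/kg, 8.68 and 9.02 at 5 µmol/kg, and 8.59 and 8.28 with saline, in the same order without overlap. The lysozyme Lyz1, the brightest member, had 13.26 and 13.43 at 10 µmol/kg and 13.23 and 13.48 at 5 µmol/kg, and the groups overlapped.

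Lysosomal enzymes and cathepsins were higher at 10 µmol/kg in 17 of 22 genes (50.8% of all genes were), with a median of 0.17. The doses did not overlap on that side for 11 of 22 (15.2% of all genes). The lysosomal lipase Lipa had 8.77 and 8.67 at 10 µmol/kg, 8.10 and 8.33 at 5 µmol/kg, and 8.96 and 8.69 with saline. The cholesterol exporter Npc1 had 9.17 and 9.10 at 10 µmol/kg, 8.53 and 8.80 at 5 µmol/kg, and 9.38 and 9.09 with saline. Both genes were lowest at 5 µmol/kg. Ctse, the brightest cathepsin, had 13.09 and 12.80 at 10 µmol/kg and 13.36 and 13.05 at 5 µmol/kg, and of its 2 other probes 1 differed in the opposite direction, by 0.28. Over 17 genes of megakaryocytes and platelets the median was 0.16, with 9 higher and 8 lower at 10 µmol/kg (50.8% of all genes were higher). In this list 2 genes had an unadjusted p under 0.05 (0.959% of all genes). Of these, the platelet adhesion glycoprotein Gp5 had 9.04 and 8.96 at 10 µmol/kg, 8.20 and 8.42 at 5 µmol/kg, and 8.81 and 8.39 with saline. The platelet receptor Treml1 had 10.62 and 10.23 at 10 µmol/kg, 9.57 and 9.68 at 5 µmol/kg, and 10.47 and 9.80 with saline. The platelet chemokine Ppbp had 10.50 and 11.44 against 11.08 and 10.94 at 5 µmol/kg, and the groups overlapped.

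The doses overlapped for 3 genes that cadmium is known to induce, Mt1, Mt2 and Hmox1. The metallothionein Mt1 had 12.28 and 12.07 at 10 µmol/kg, 12.23 and 12.36 at 5 µmol/kg, and 11.48 and 13.17 with saline. The saline arrays were the lowest and the highest of the 6, and the difference between the doses was −0.13, with a 95% interval between −1.36 and 1.11. Mt2, read by a dim probe, had 4.57 and 5.10 at 10 µmol/kg, 5.35 and 4.81 at 5 µmol/kg, and 4.63 and 5.58 with saline. Hmox1, the haem-degrading enzyme, had 8.94 and 9.52 at 10 µmol/kg, 9.19 and 8.90 at 5 µmol/kg, and 8.59 and 8.97 with saline. Slc39a8, a zinc importer that also carries cadmium, had 4.52 and 4.66 at 10 µmol/kg and 5.06 and 5.08 at 5 µmol/kg. It was detected on neither array at 10 µmol/kg. The iron exporter Slc40a1 had 12.32 and 12.25 at 10 µmol/kg, 11.88 and 12.08 at 5 µmol/kg, and 11.99 and 12.08 with saline. Over 9 metal binding and transport genes the median was −0.19.

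Of 26 NRF2 and glutathione genes, which respond to oxidants, 19 were lower at 10 µmol/kg (49.2% of all genes were) and 6 higher. Another had the same value on both arrays of each dose. The median over the 26 was −0.12, and the doses did not overlap on the lower side for 12 (15.7% of all genes). Nqo1, a quinone reductase, had 5.83 and 6.04 at 10 µmol/kg, 7.14 and 6.24 at 5 µmol/kg, and 5.31 and 5.98 with saline. Gstp1, which joins glutathione to its substrates, had 10.02 and 10.32 at 10 µmol/kg, 11.00 and 10.52 at 5 µmol/kg, and 10.66 and 10.06 with saline. In both genes the arrays at 10 µmol/kg lay below those at 5 µmol/kg. Over 26 p53 target and BCL2 family genes the median was −0.11. Within it Mcl1, which holds back cell death, had 10.67 and 10.36 at 10 µmol/kg, 9.69 and 9.92 at 5 µmol/kg, and 10.61 and 10.33 with saline (difference 0.71 ± 0.25, unadjusted p = 0.0273, adjusted p = 0.981). Both arrays at 5 µmol/kg were lower than the other 4. The kinase Plk3 had 5.64 and 5.51 against 6.0 and 6.12 at 5 µmol/kg, and the stress-induced Sesn1 had 11.51 and 11.33 against 10.94 and 11.25.

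**Figure D4:**
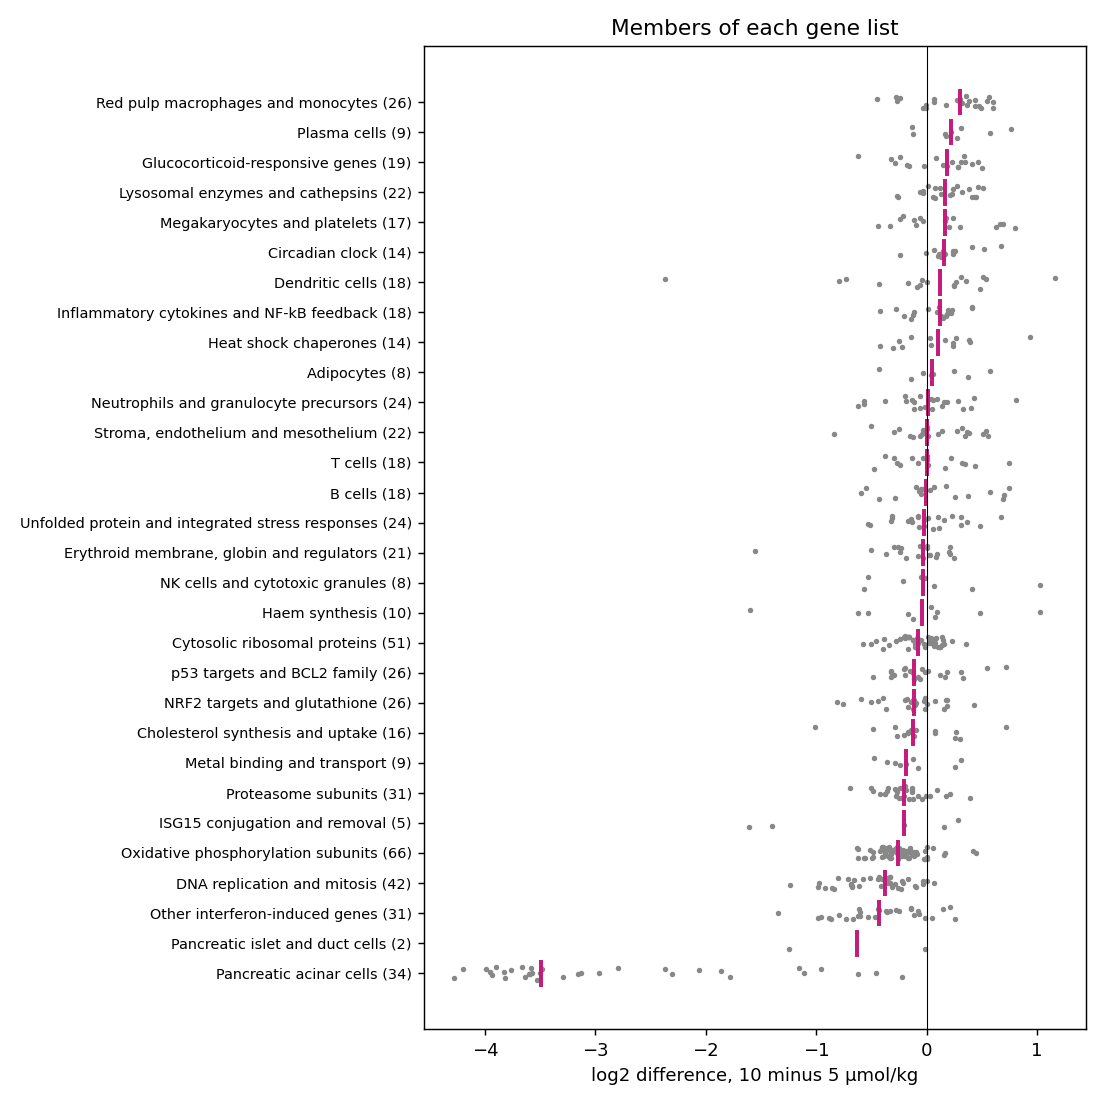
Log2 difference between 10 and 5 µmol/kg (horizontal axis) of each measured member (grey points) of 30 gene lists, with the number of members in brackets and the list median as a bar. Acinar genes have a median of −3.49, interferon-induced genes −0.43, replication and mitosis genes −0.38 and macrophage genes 0.31, and the other lists of 5 or more genes have medians between −0.26 and 0.22.

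**Figure D5:**
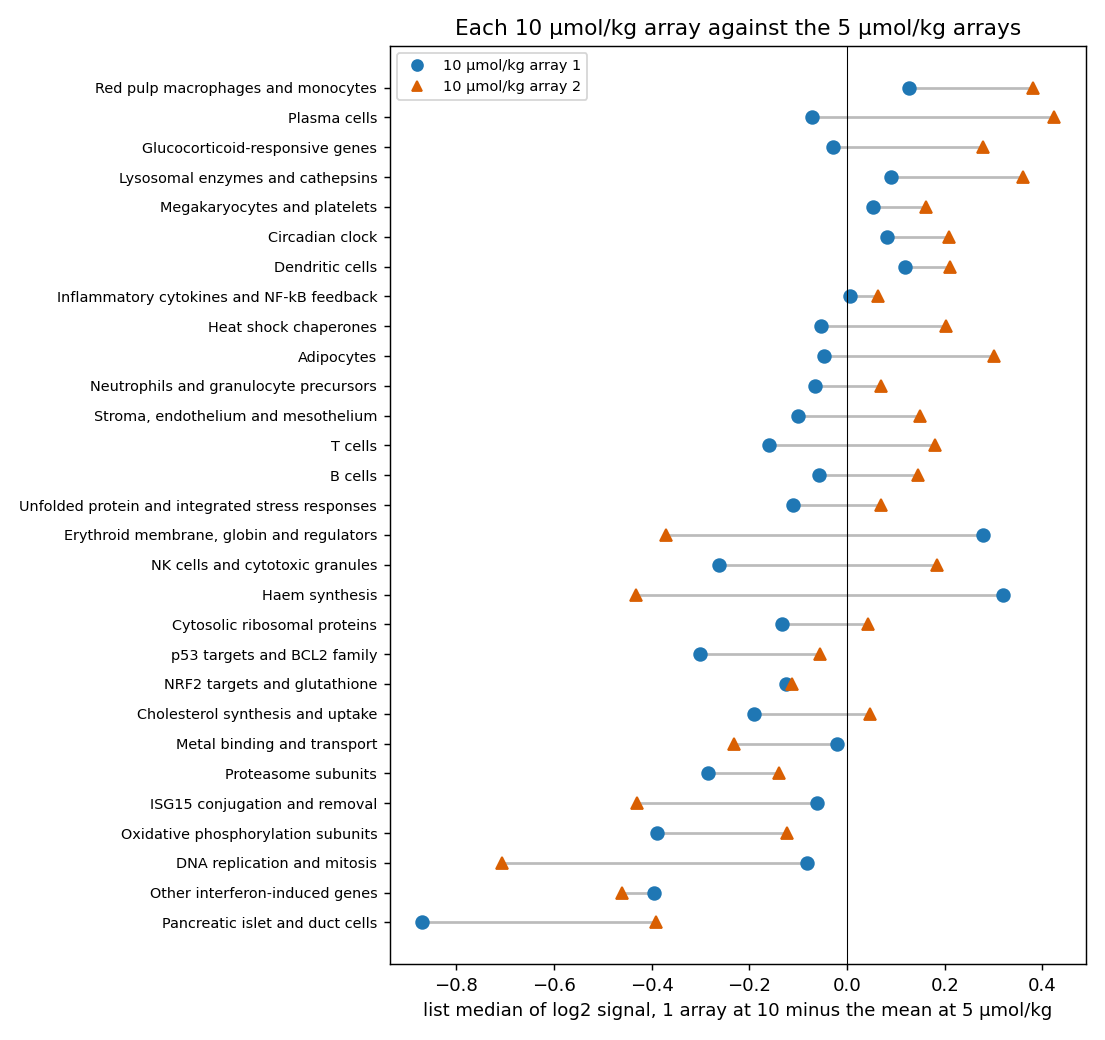
Median over each of 29 gene lists, without the acinar one, of the log2 signal on array 1 (circles) and on array 2 (triangles) at 10 µmol/kg minus the mean of the 5 µmol/kg arrays. For haem synthesis the arrays give 0.32 and −0.43 and for DNA replication and mitosis −0.08 and −0.71. For interferon-induced genes they give −0.40 and −0.46, each against the same 5 µmol/kg mean. Without array 2 at 5 µmol/kg the median difference of that list between the doses was −0.10.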

How the data were processed

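RNA of 6 mouse spleen samples was extracted with Trizol, cleaned on columns, labelled with biotin and read on Illumina bead arrays, per the labels' protocols. The intensity values are the authors' deposited linear bead signals, from a table that calls itself not normalized. The sorted values differed by at most 0.243 between arrays and reached −20.15, so background subtraction and quantile normalization had come before deposit. The sources used here do not name the software. The detection p-values are the authors' deposited ones. From these, log2 signals were made with neqc of limma 3.58.1 in R 4.3.3 (offset 16, which understates the change of dim genes). Probes with a detection p under 0.05 on at least 2 arrays were kept. The platform annotation named 34885 of 45281 probes with 1 gene, 18 with several and 10378 with none, and 34807 were found in RefSeq (GRCm38.p6), none renamed. The brightest probe stood for each gene (10823 genes and 2736 unnamed probes).

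All 6 arrays entered 1 linear model with 3 group means (3 residual and 3.64 prior degrees of freedom). The contrast 10 minus 5 µmol/kg was tested with limma's moderated test and Benjamini-Hochberg adjustment over all 13559, at 0.05. The test was run on simulated arrays with planted changes and independent noise for each gene, and the estimated differences were checked against the planted ones. The simulated arrays held no effect shared by many genes of an array, so they do not check the p-values for such effects. Named were the 15 genes with the smallest p in each direction, detected on both arrays of at least 1 dose, the brightest member and the 2 with the smallest p of a list, the measured ISG15 genes, and Mt1, Mt2 and Hmox1. The members and the lists were chosen with earlier results of these data known. Lists are described by counts and medians only. Alternatives changed the normalization, offset, filter, probe choice, variance model, arrays and replicate block. The number of arrays limits the precision.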

Additional observations from a re-analysis of the deposited data

How the results depend on the processing

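The count of genes passing the adjusted threshold was 0 under each alternative except the test of every probe on its own, where it was 1, the probe of Tmem14c. None of the 84 named genes passed as a gene in any alternative. Direction was compared in all of them except the test of every probe on its own, and 65 genes kept it. Of a gene's other probes only the brightest entered this count, so the opposite probes of Pced1a and Oas1g did not. Where the doses did not overlap, leaving out 1 array could not change the direction. All 15 genes named by smallest p on each side were of this kind, so part of the count was fixed by the choice. The count at an unadjusted p under 0.05 was 130. It was 832 without the filter (408 higher and 424 lower at 10 µmol/kg, of 29453 tested), 196 with every probe on its own (116 lower) and 242 with only the 4 cadmium arrays (148 lower). With the replicate block it was 160, and the block changed no adjusted call. The differences between replicates 1 and 2 correlated at −0.11 between the doses. The correlation was 0.58 between 10 µmol/kg and saline and −0.28 between 5 µmol/kg and saline. Whether the replicate numbers pair the samples was not tested. With the numbers at 5 µmol/kg exchanged, chosen after the data were seen, the count at an unadjusted p under 0.05 was 571 (336 higher and 235 lower). With only the 4 arrays bright in acinar genes, also chosen afterwards, it was 704 (349 higher and 355 lower), with a smallest adjusted p of 0.0604. Leaving out each array in turn gave between 35 (without array 1 at 5 µmol/kg) and 1271 (without array 2 at 10 µmol/kg), with 9 to 737 higher and 26 to 534 lower. In these fits the lone array of a dose is assumed to vary like the other groups. Of the 1271 genes, 75 were among the 130, and of the 35, 13. The cause of these shifts was not tested. The other 19 genes changed direction in at least 1 alternative. Over the fits that left out 1 array, the log2 difference (10 minus 5 µmol/kg) ran between these values: −0.40 to 0.56 for Alas2, −7.04 to 0.043 for Amy2a5, −0.29 to 0.61 for Atp5b, −0.044 to 0.56 for Cd79b, −0.11 to 0.48 for Hmox1, −2.80 to 0.11 for Ifit3, −0.14 to 0.12 for Lyz1, −0.51 to 0.027 for Mt2, −0.51 to 0.43 for Ppbp, −0.48 to 0.57 for Rsad2, −0.087 to 0.028 for Slc4a1, −0.056 to 0.63 for Trim25, −0.43 to 0.74 for Uba7 and −0.060 to 0.88 for Per1. On the second probe it was 0.28 for Ctse, 0.49 for Fdps, 0.23 for Nsdhl, 0.020 for Ppbp, −0.11 for Tmem191c and −0.19 for Tef. With only the arrays bright in acinar genes it was −0.40 for Alas2, 0.043 for Amy2a5, −0.29 for Atp5b, 0.076 for Lyz1, 0.024 for Mt2, 0.43 for Ppbp, −0.48 for Rsad2, −0.43 for Uba7 and −0.060 for Per1. Of 390 list medians recomputed, 41 moved by more than the spread between replicate arrays. The 390 include settings that could not move a median, those without a saline array and those with a replicate block. The setting with only the arrays bright in acinar genes repeats the medians found without array 1 at 10 µmol/kg. The share that moved therefore understates the dependence on single arrays.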

Other observations

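Lymphocyte genes were centred near 0 between the doses. The median log2 difference (10 minus 5 µmol/kg) was −0.01 over 18 B cell genes (−0.06 on array 1 at 10 µmol/kg and 0.14 on array 2) and 0.00 over 18 T cell genes (−0.16 and 0.18). The B cell receptor component Cd79b had 11.72 and 11.76 at 10 µmol/kg and 11.18 and 11.78 at 5 µmol/kg, and the groups overlapped. Cd22, which restrains B cell receptor signals, had 8.40 and 7.97 at 10 µmol/kg, 7.04 and 7.83 at 5 µmol/kg, and 8.96 and 8.71 with saline. It was lowest on both arrays at 5 µmol/kg. Mef2b, a germinal centre transcription factor, had 7.28 and 7.90 at 10 µmol/kg, 8.23 and 8.04 at 5 µmol/kg, and 7.31 and 7.32 with saline. The T cell co-receptor Cd4 had 6.30 and 5.73 at 10 µmol/kg, 5.03 and 5.49 at 5 µmol/kg, and 6.52 and 5.18 with saline. Over 9 plasma cell genes the median was 0.22, with −0.07 on array 1 at 10 µmol/kg and 0.42 on array 2. Creld2 had 7.86 and 8.07 at 10 µmol/kg, 7.36 and 7.42 at 5 µmol/kg, and 7.87 and 7.52 with saline. None of these genes passed the adjusted test.

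Of 14 circadian clock genes, 12 lay higher at 10 µmol/kg (50.8% of all genes did), with a median of 0.15. Several were dim: 9 and 11 of the 14 were detected on the arrays at 5 µmol/kg, and 11 on each at 10 µmol/kg. Without array 1 at 5 µmol/kg, 10 lay higher and the median was 0.095. Cry2, a repressor in the clock, had 5.90 and 4.83 at 10 µmol/kg, 4.54 and 4.85 at 5 µmol/kg, and 5.53 and 5.38 with saline, and the doses overlapped. Per1, another repressor and the brightest member, had 8.79 and 7.85 at 10 µmol/kg and 7.65 and 8.17 at 5 µmol/kg, and the groups overlapped. Tef, a clock output factor, had 6.42 and 6.33 at 10 µmol/kg and 5.71 and 6.0 at 5 µmol/kg, while its second probe differed the other way. Over 16 genes of cholesterol synthesis and uptake the median was −0.13, with −0.19 on array 1 at 10 µmol/kg and 0.05 on array 2. Fdps, the brightest of them, had 8.62 and 8.57 at 10 µmol/kg and 9.04 and 8.68 at 5 µmol/kg. Msmo1, an enzyme of the late pathway, had 5.75 and 5.97 at 10 µmol/kg, 5.66 and 4.62 at 5 µmol/kg, and 5.38 and 5.65 with saline. The direction of Nsdhl in the same pathway was thus not shared by Msmo1. None of these genes passed the adjusted test. Over 51 cytosolic ribosomal protein genes the median was −0.08, with −0.13 on array 1 at 10 µmol/kg and 0.04 on array 2.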
